A study of Bombyx mori with 6 samples.

Results

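Serpins are a family of serine protease inhibitors, and their transcripts were followed here in testes of the silkworm Bombyx mori. Genes were taken as members when their NCBI symbol began with serpin, ignoring case, which gave 30 of the 15884 genes of the deposited count table. Of these, 26 had 10 or more reads summed over the 6 libraries and are called expressed here. Testes were taken at day 5 of the fifth larval instar from a genetic male sterile strain (GMS, genotype given as mutant type, 3 libraries) and from its wild-type strain 898WB (WT, 3 libraries). The labels do not say how far the strains differ outside the sterility mutation, so the mutation and the rest of the strain's genome cannot be told apart. Nor do they say how many animals stand behind a library, so a p-value here covers the spread among libraries and no more.

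A serpin presents an exposed reactive centre loop as bait. The target protease cleaves the loop, is carried across the serpin as the loop inserts into the protein, and stays trapped in a covalent complex, so that each serpin molecule acts once. In insect haemolymph, serpins restrain the clip-domain protease cascades that activate prophenoloxidase for melanization and cleave Spätzle for Toll signalling. Protease activity also matters in the male tract of moths, where a trypsin-like enzyme, initiatorin, matures the sperm, and serpins are found among the seminal proteins of insects. Functions of silkworm serpins 1 to 6 are known mainly through the serpins of the tobacco hornworm Manduca sexta after which they are numbered.

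The libraries held 19627477 to 27941504 counted reads in GMS and 21690617 to 28358501 in WT, and 3 reads corresponded to 0.103 to 0.148 CPM (counts scaled to library size) in a library. The labelled tissue was checked against germ line markers: Tub4, a testis beta-tubulin, averaged 24830 CPM in GMS and 32823 CPM in WT, and TSSK, a testis-specific serine kinase, 1642 CPM in GMS and 2014 CPM in WT. Boule, a meiotic regulator, was nearly absent, with 2 reads in GMS and 1 in WT. WT replicate 3 stood apart from the others of its strain, with correlations of 0.985 and 0.982 across genes against 0.995 between WT replicates 1 and 2, so results were also computed without it. No genome coordinates are given, since the genome build behind the counts is not given in the sources used here.

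Testes of both strains carried the same leading serpins. Over all 6 libraries the most abundant, serpin-4, averaged 132 CPM. The median was 5.19 CPM for the serpins tested below and 22.0 CPM for all genes tested. Serpin transcripts together took 0.0542% to 0.0553% of the counted reads in GMS and 0.0521% to 0.0527% in WT. Their summed level was 527.5 ± 6.31 CPM in GMS and 542.8 ± 8.74 CPM in WT (SD, n = 3; CPM after scaling by the trimmed mean of M-values, TMM). Summed as deposited RPKM, reads scaled by gene length and by library depth, it was 119 ± 2.101 in GMS and 117 ± 5.23 in WT. The direction of this small difference therefore turned with the scaling. GMS was lower in TMM-scaled CPM, and higher both as a share of counted reads and in mean RPKM. Most of the sum lay in few genes: the 9 most abundant members made up 93.0% of the summed RPKM in GMS and 92.8% in WT, and they were the same 9 in both strains.

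**Figure D1:**
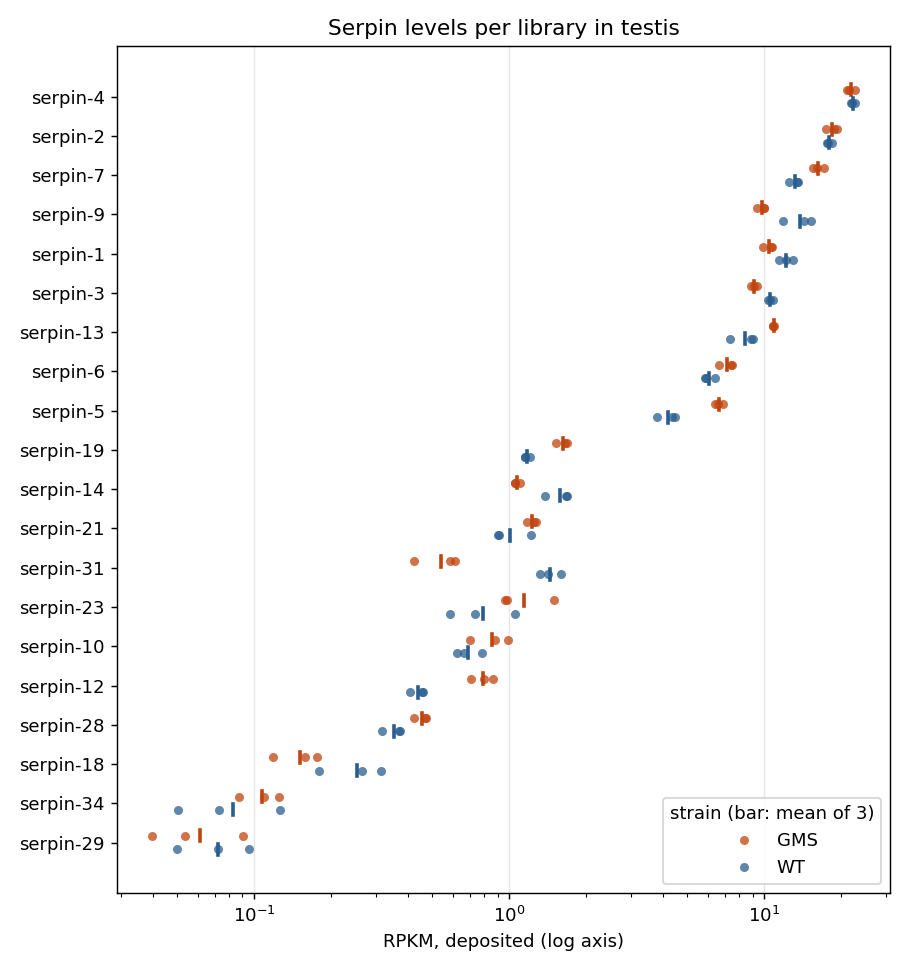
Deposited RPKM of the 20 tested serpin genes in each GMS library (red, upper row of each gene) and each WT library (blue, lower row), on a log axis, with a bar at the mean of 3. Serpin-4, with means of 21.8 RPKM in GMS and 22.2 RPKM in WT, is at the top in both strains, and a gap separates the 9 most abundant serpins from the rest.

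Per length, serpin-4 (gene 692644) led in both strains at 21.8 ± 0.862 RPKM in GMS and 22.2 ± 0.466 RPKM in WT (SD, n = 3). Its Manduca counterpart inhibits haemolymph proteases upstream of melanization. Serpin-2 (gene 692573), whose Manduca counterpart is an intracellular protein of haemocytes, followed at 18.5 ± 0.950 RPKM in GMS and 18.0 ± 0.394 RPKM in WT. The third place differed: it was held by serpin-7 in GMS, at 16.3 ± 0.851 RPKM, and by serpin-9 in WT, at 13.8 ± 1.74 RPKM. Serpin-7 stood at 13.2 ± 0.570 RPKM in WT, within the spread of serpin-9 there. Below the first 9, the tenth serpin was at 1.62 RPKM in GMS (serpin-19) and 1.58 RPKM in WT (serpin-14).

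Setting the sterile strain against the fertile one shows where serpin transcripts differ in the testis. In GMS, serpin-12, serpin-5, serpin-19, serpin-13 and serpin-7 rose and serpin-31, serpin-14, serpin-9, serpin-1 and serpin-3 fell, by 1.19-fold to 2.77-fold. Counts were compared with the quasi-likelihood test of edgeR over all genes, and a gene was called at a Benjamini-Hochberg adjusted p under 0.05. The low-count filter kept 20 serpins, of which 5 rose, 5 fell and 10 did not pass. That is 25% in each direction, against 17.6% of the 12029 tested genes higher and 18.6% lower in GMS, or 50% against 36.2% in either direction. With library totals alone in place of TMM, 3264 of all genes were higher and 1695 lower, against 2115 and 2242 with TMM. In size the serpin differences were modest: 1 of 20, serpin-31, passed 2-fold, or 5% against 10.3% of all tested genes, and the median absolute log2 change was 0.31 for serpins and 0.25 for all tested genes. The signed medians were 0.21 and 0.05. In bulk tissue a difference in the number of expressing cells and one in RNA per cell cannot be told apart.

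**Figure D2:**
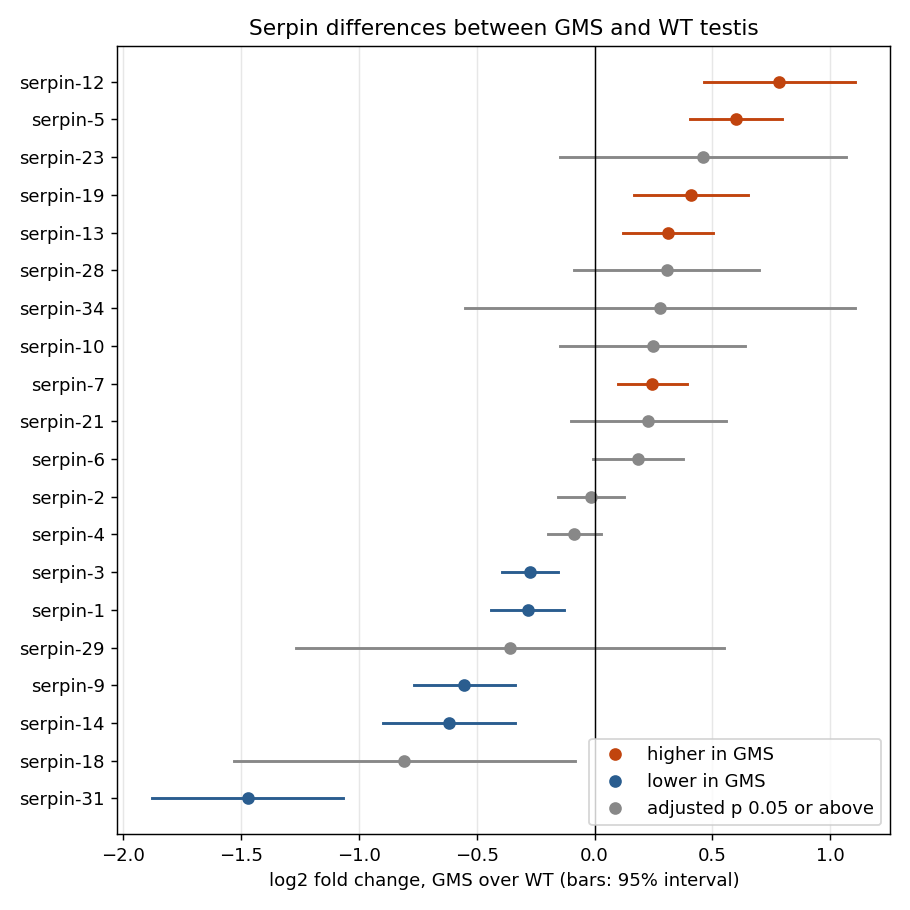
Log2 fold change, GMS over WT, of the 20 tested serpin genes with its 95% interval, with serpins called higher in red, called lower in blue and not called in grey. Serpin-12 is highest at 0.78 and serpin-31 lowest at -1.47, and the intervals of low-count members such as serpin-34 and serpin-29 are wide.

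Serpin-31 (gene 100272195) showed the largest difference of the tested serpins. It stood at 1.53, 1.07 and 1.45 CPM in GMS, against 3.64, 4.09 and 3.49 CPM in WT. All 3 GMS libraries lay below all 3 WT libraries. The level was 2.77-fold lower in GMS (log2 change -1.47, standard error 0.17, edgeR adjusted p = 0.000575). It rests on 99 reads in GMS and 273 in WT.

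Serpin-14 (gene 100272178) was at 3.50, 3.74 and 3.48 CPM in GMS and at 5.81, 5.73 and 4.90 CPM in WT. The strains did not overlap, and the GMS libraries differed from each other by less than the WT libraries did. The log2 change was -0.62 (standard error 0.12, edgeR adjusted p = 0.00609).

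Serpin-9 (gene 693071), for which the gene table gives the synonym ACHY-I, from an antichymotrypsin, was the most abundant of the 3 largest falls. It had 29.6, 28.3 and 29.5 CPM in GMS, against 43.8, 46.7 and 37.6 CPM in WT. The GMS libraries were tightly grouped, and the lowest WT library was WT replicate 3. The log2 change was -0.55 (standard error 0.09, edgeR adjusted p = 0.00291), and -0.68 without WT replicate 3.

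Serpin-3 and serpin-1 fell by less. Serpin-3 (gene 693100), whose Manduca counterpart inhibits the prophenoloxidase-activating proteases, was at 65.0, 62.6 and 63.1 CPM in GMS and at 75.9, 77.5 and 77.1 CPM in WT. The strains were well separated for the size of the change, because replicates of this gene were close together. The log2 change was -0.27 (standard error 0.05, edgeR adjusted p = 0.00507). Serpin-1 (gene 692739), the silkworm antitrypsin, had 38.8, 36.4 and 38.4 CPM in GMS, against 45.3, 48.5 and 44.3 CPM in WT. The strains did not overlap here either. The log2 change was -0.28 (standard error 0.07, edgeR adjusted p = 0.0136), but the adjusted p was 0.0600 without GMS replicate 2 and 0.0548 with library totals alone. In Manduca the serpin-1 gene is spliced into variants that differ in their reactive loop, which counts per gene do not separate.

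Among the rises, serpin-12 (gene 692397) was the largest, at 3.45, 4.28 and 3.86 CPM in GMS, against 2.32, 2.29 and 2.12 CPM in WT. All GMS libraries were above all WT libraries, and the spread was wider in GMS. The level was 1.72-fold higher in GMS (log2 change 0.78, standard error 0.14, edgeR adjusted p = 0.00382).

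Serpin-5 (gene 692688) also rose. Its counterpart in Manduca inhibits haemolymph proteases upstream of melanization and Toll. It was measured at 22.2, 20.9 and 21.3 CPM in GMS and at 14.9, 14.4 and 13.1 CPM in WT. The gap between the strains was several times the spread within either. The level was 1.52-fold higher in GMS (log2 change 0.60, standard error 0.08, edgeR adjusted p = 0.00131).

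The other rises were smaller. Serpin-7 (gene 100272173) was at 47.1, 46.2 and 50.2 CPM in GMS and at 41.2, 40.7 and 39.3 CPM in WT (log2 change 0.25, standard error 0.06, edgeR adjusted p = 0.0197). Serpin-13 (gene 100272177) had 39.1, 39.6 and 39.1 CPM in GMS, against 33.5, 33.1 and 28.2 CPM in WT (log2 change 0.31, standard error 0.08, edgeR adjusted p = 0.0215). Serpin-19 (gene 100272184) had 5.76, 5.39 and 5.83 CPM in GMS, against 4.15, 4.34 and 4.29 CPM in WT (log2 change 0.41, standard error 0.10, edgeR adjusted p = 0.0186). In each of these 3 genes the GMS libraries lay above the WT libraries, and for serpin-13 WT replicate 3 was the lowest of all.

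**Figure D3:**
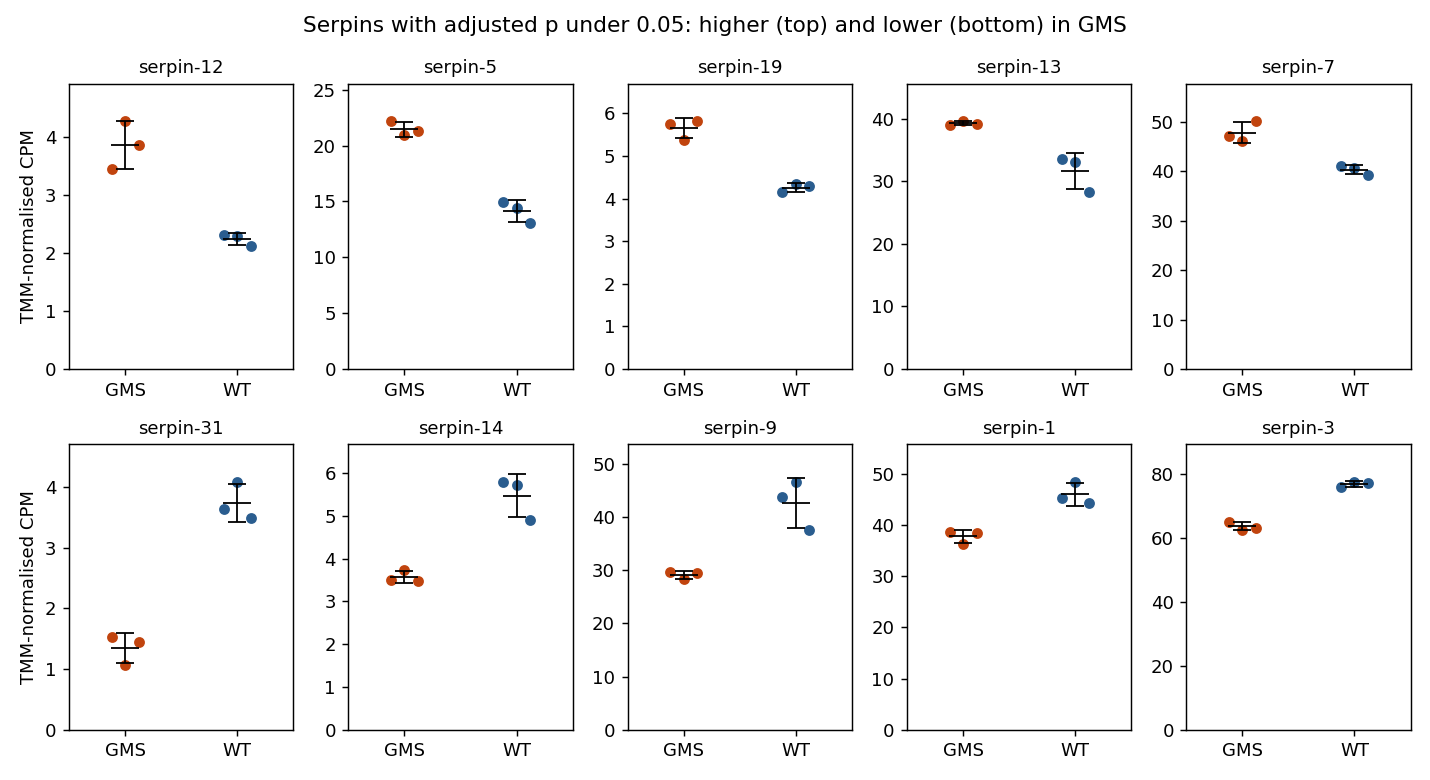
TMM-normalised CPM of the 10 called serpins in each library, GMS left and WT right in each panel, with black bars at mean ± SD of 3 libraries and each panel on its own axis from 0. No panel has a GMS library within the range of the WT libraries, and serpin-31 shows the widest relative gap.

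The calls were not equally firm. Serpin-3, serpin-5, serpin-9, serpin-12, serpin-14 and serpin-31 passed in all 15 alternative analyses run. Serpin-1 passed in 11 of the 15. Besides the misses given above, its adjusted p was 0.0628 with limma on log2(RPKM + 0.1) and 0.0617 in edgeR with the replicate number as a block. With DESeq2, serpin-7 and serpin-19 were not called (DESeq2 adjusted p = 0.0554 and 0.107). The calls of the 3 smallest rises were lost when single libraries were left out: serpin-7 had an edgeR adjusted p of 0.0602 without GMS replicate 1, 0.0830 without GMS replicate 3 and 0.0587 without WT replicate 1. Serpin-13 had 0.0695, 0.0726 and 0.0687 without GMS replicates 1, 2 and 3 in turn, and serpin-19 had 0.0655 without GMS replicate 1, 0.0684 without GMS replicate 3 and 0.0737 without WT replicate 1. Accordingly the number of serpins called higher was 2 without GMS replicate 1, 2 without GMS replicate 3 and 3 without WT replicate 1, with DESeq2 or with upper-quartile factors. The number called lower stayed between 4 and 6. Without WT replicate 3, 6 serpins rose and 6 fell, the 10 above together with serpin-6 and serpin-4, or 60% called. In that fit 58.0% of all 12250 tested genes were called, 29.0% higher and 29.0% lower.

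**Figure D4:**
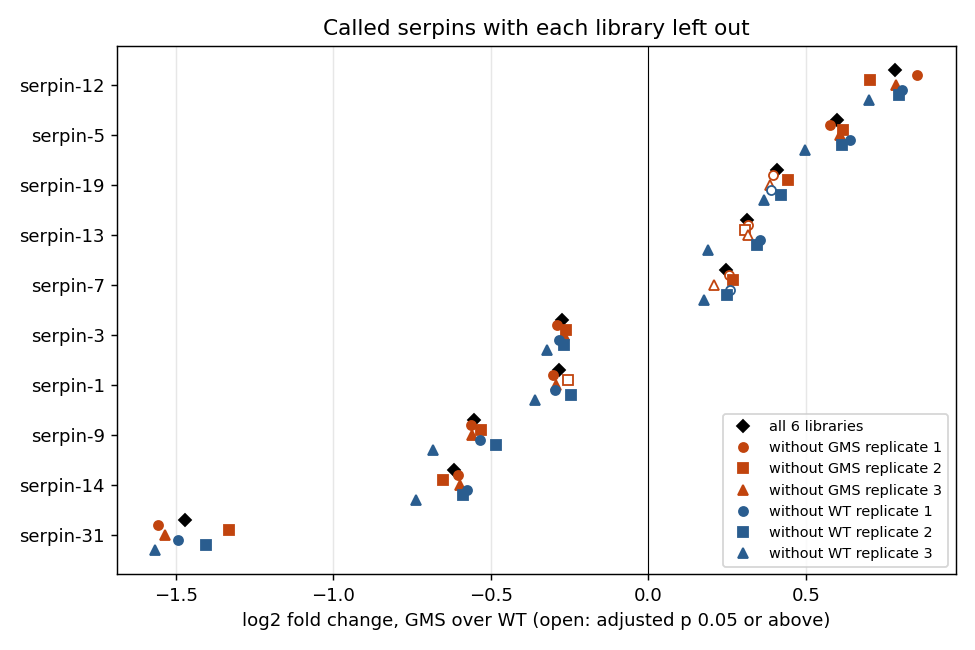
Log2 fold change, GMS over WT, of the 10 called serpins with all 6 libraries (black diamonds) and with each library left out (red for GMS, blue for WT), open where the adjusted p was 0.05 or above. Every value keeps its sign, and the open symbols are confined to serpin-1, serpin-7, serpin-13 and serpin-19.

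The 2 most abundant serpins did not pass the test, and their precision was high. Serpin-4 had 134, 126 and 126 CPM in GMS, against 138, 134 and 137 CPM in WT. Its GMS libraries were all below its WT libraries by a narrow margin, and the log2 change was -0.09 with a 95% interval of -0.20 to 0.03 (edgeR adjusted p = 0.203). The call depended on WT replicate 3, without which the log2 change was -0.13 (edgeR adjusted p = 0.0220). Serpin-2 was at 83.7, 86.7 and 77.1 CPM in GMS and at 81.8, 84.5 and 83.8 CPM in WT. The strains overlapped, with a 95% interval of -0.16 to 0.13 for the log2 change. These bounds hold under TMM scaling only: with library totals alone the log2 change of serpin-2 was 0.0859.

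Serpin-6 (gene 100126553), whose Manduca counterpart inhibits a prophenoloxidase-activating protease, had 41.5, 46.8 and 46.5 CPM in GMS, against 38.0, 37.8 and 42.9 CPM in WT. GMS replicate 1 fell below WT replicate 3, so the strains overlapped. The log2 change was 0.19 with an interval of -0.01 to 0.38 (edgeR adjusted p = 0.118). Without WT replicate 3 it was 0.20 (edgeR adjusted p = 0.0179), and with library totals alone 0.29 (edgeR adjusted p = 0.0343).

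The 7 other tested serpins did not pass either. Serpin-28, serpin-34, serpin-18 and serpin-29 rest on few reads, at 216, 113, 93 and 71 over the 6 libraries. Serpin-21, serpin-10 and serpin-23 had 794, 583 and 467, above the 372 of serpin-31, which was called. Serpin-21, serpin-10, serpin-23 and serpin-28, at means of 5.84, 4.35, 3.74 and 1.64 CPM in GMS and 4.99, 3.65, 2.67 and 1.33 CPM in WT, had log2 changes of 0.23, 0.25, 0.46 and 0.31. Their intervals all included 0, and the interval of serpin-23, from -0.15 to 1.06, still held a 2-fold rise. Serpin-28 did not overlap between the strains. Serpin-34 and serpin-29, both averaging under 1 CPM, had intervals of -0.55 to 1.11 and -1.27 to 0.55. Serpin-18, a silk gland serpin of the silkworm known as an inhibitor of cysteine proteases, was at 0.542, 0.370 and 0.483 CPM in GMS and 0.845, 0.573 and 1.04 CPM in WT. Its strains did not overlap, and its log2 change of -0.81, with an interval of -1.53 to -0.08 before adjustment, missed the threshold (edgeR adjusted p = 0.0802), though it passed without WT replicate 2 (edgeR adjusted p = 0.0482). Over the 20 tested serpins the strains did not overlap for 13, or 65%, against 51.0% of all tested genes. GMS was above WT in 6 of the 13 and below in 7.

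A further 6 serpins were expressed by the rule of 10 reads but too low for the test. Serpin-25 (gene 100272190) had 0, 1 and 6 reads in GMS, against 5, 16 and 10 in WT. The ratio of depth-corrected sums, GMS over WT, was 0.223, with a 95% exact binomial interval of 0.0831 to 0.517. Such intervals cover counting error only, and the libraries overlapped. Serpin-33 (gene 100190965) had 3, 3 and 1 reads in GMS and 6, 8 and 13 in WT, a ratio of 0.257 with an interval of 0.0943 to 0.604. Here every GMS library was below every WT library in CPM. With no filter on low counts neither passed (edgeR adjusted p = 0.0864 for serpin-25 and 0.0585 for serpin-33).

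The other 4 gave no difference that their reads could resolve. Serpin-32, which acts on prophenoloxidase activation in the silkworm, had 13 reads in GMS and 13 in WT. Serpin-15, with the same kind of role, had 8 reads in GMS and 7 in WT. Serpin-8 had 9 and serpin-26 had 4 reads in GMS, against 15 and 9 in WT, with ratio intervals that included 1. Serpin-26, with 13 reads in all, was the expressed serpin nearest the limit of 10. Just outside it was serpin-30, with 6 reads in GMS and 2 in WT. Serpin-20 had 2 reads in GMS and 4 in WT, serpin-22 had 1 and 3, and serpin-16, a silk gland relative of serpin-18, had none in GMS and 3 in WT. At this depth these 4 were not detectable above 10 reads, which does not show that they are absent.

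Serpin genes often lay beside each other in the RefSeq gene order of assembly ASM3026992v2, which was used for neighbourhood only. With at most 3 other protein-coding genes allowed between them, a limit chosen after the order was seen, 24 of the 30 serpins fell into 8 groups of neighbours and 6 stood alone. Levels and differences were mixed within groups. Serpin-7 and serpin-14 are direct neighbours: serpin-7 rose to 47.9 CPM in GMS against 40.4 CPM in WT, and serpin-14 fell to 3.57 CPM in GMS against 5.48 CPM in WT. In the run of serpin-3, serpin-10 and serpin-12, the first fell, the second did not pass and the third rose. Serpin-5, which rose, lies next to serpin-32 with 26 reads in all and near serpin-4, with 19339 reads. The run of serpin-22, serpin-18 and serpin-16 was low throughout, at 4, 93 and 3 reads. So was that of serpin-15, serpin-20 and serpin-25, at 15, 6 and 38. Close copies can share reads, and how reads matching several genes were counted is not given in the sources used here, so values of neighbouring serpins carry that uncertainty.

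The genes that serpins act beside were counted in the same fit. Of 20 tested recognition and melanization genes, 10 rose and 4 fell (70% called, median log2 change 0.27), against 36.2% of all tested genes called, 17.6% higher and 18.6% lower, with a median of 0.05. Those with the smallest adjusted p in each direction were mostly C-type lectins, which bind sugars on microbes. CTL16, CTL4 and CTL5 rose by 2.45, 1.82 and 2.80 on the log2 scale, and CTL6 and CTL11 fell by 3.13 and 0.81 (edgeR adjusted p = 4.54e-06, 8.94e-06, 9.16e-06, 0.000211 and 0.00478). Prophenoloxidase-activating enzyme PPAE, the protease that serpins of this pathway hold in check, fell to 25.4 ± 0.824 CPM in GMS against 41.4 ± 3.71 CPM in WT (SD, n = 3). Its substrate gene PPO2 rose to 36.1 ± 3.88 CPM in GMS against 21.3 ± 2.83 CPM in WT. The log2 changes were -0.71 and 0.76 (edgeR adjusted p = 0.000634 and 0.00261), and both passed in all 15 alternatives. PPO1 had too few reads to test.

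Of 4 serine protease genes found by symbol, 1 rose and 2 fell (median log2 change -0.48), or 75% called against 36.2% of all tested genes. PPAE is one of the falls. CLIP11 and CLIP3, clip-domain proteases, changed by 0.24 and -0.65 (edgeR adjusted p = 0.0438 and 0.0433), and each kept its call in 1 of the 6 fits with a library left out, CLIP11 in that without WT replicate 3 and CLIP3 in that without WT replicate 1. Of 5 Toll and Imd signalling genes, 2 rose and none fell (median 0.24), and this 40% is near the 36.2% called over all tested genes. SPZ1, encoding the Toll ligand Spätzle, rose to 16.02 ± 0.248 CPM in GMS against 8.97 ± 1.63 CPM in WT (SD, n = 3; log2 change 0.83, edgeR adjusted p = 0.00270). Rel, a transcription factor of these pathways, changed by 0.24 (edgeR adjusted p = 0.0463), and of the 6 fits with 1 library left out it was called in the one without WT replicate 3 only. Of 3 tested genes of other protease inhibitors, none rose and 1 fell: Spi2 was 4.01-fold lower in GMS (edgeR adjusted p = 0.00563), with 14 reads in GMS and 57 in WT. The median of these 3 was 0.03, and 33.3% called is near the 36.2% of all tested genes.

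**Figure D5:**
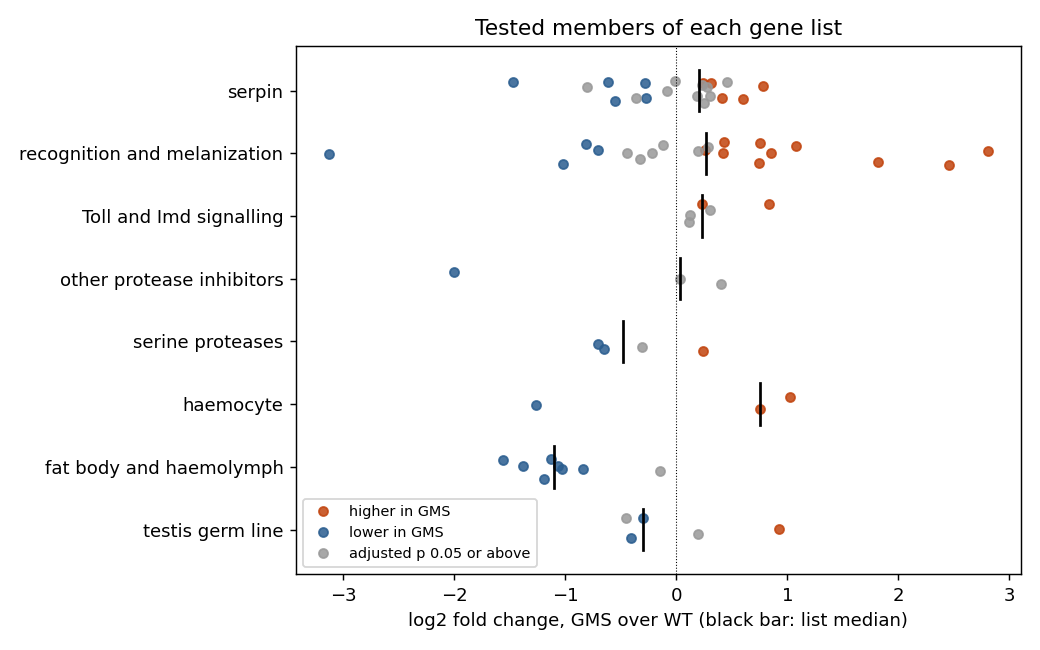
Log2 fold change, GMS over WT, of each tested gene of the serpin family, 4 pathway lists and 3 tissue marker lists, red for called higher, blue for called lower and grey for not called, with a black bar at each list's median. The serpins lie between -1.47 and 0.78, a narrower span than the recognition and melanization genes, which reach from -3.13 to 2.80.

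Serpins are made by fat body and haemocytes as well as by other tissues, and markers of those moved between the strains. Fat body and haemolymph markers summed to 202 to 216 CPM in GMS, against 386 to 512 CPM in WT. Falls were called for 7 of the 8 tested and rises for none (median log2 change -1.10), against 18.6% of all tested genes lower and 17.6% higher. None of the 8 was at 0 in either strain. Lp-c23, LP4 and LP3 fell by 1.19, 1.38 and 1.07 (edgeR adjusted p = 0.000143, 0.000190 and 0.000246). Haemocyte markers summed to 95.8 to 110 CPM in GMS, against 51.8 to 65.6 CPM in WT. Of the 3 tested, 2 rose and 1 fell: NimB and PPO2 rose by 1.02 and 0.76 and Scr-c fell by 1.26, with a list median of 0.76 and 36.2% of all tested genes called. Cuticular protein genes, taken for epidermis, were at 10 or more reads for 102 of 201, with 26 rises and 21 falls among 73 tested (64.4% called against 36.2% of all tested genes, median 0.25), with a sum of 1487 to 1562 CPM in GMS and 1273 to 1498 CPM in WT. Of 5 tested germ line genes, Dmc1 rose by 0.93 and TSSK and Tub4 fell by 0.29 and 0.40 (median -0.29), or 60% called against 36.2% of all tested genes. Nanoso and Ago3 were not called. The germ line sum was 26050 to 26746 CPM in GMS and 31854 to 36500 CPM in WT. It mostly follows Tub4, which averaged 24830 of 26499 CPM in GMS and 32823 of 34858 CPM in WT. The part of these tissues in the serpin differences was not tested.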

How the data were processed

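The authors deposited unnormalised counts of reads in each gene, as 1 table of 6 libraries, and RPKM values per gene in a file for each library. Per the labels' protocols, TRIzol served for RNA extraction and a TruSeq kit for the libraries. Whether reads keep their strand was not checked here, so sense and antisense reads may be mixed in the counts. The tools named in the submitters' processing notes include HISAT2 2.1.0 and featureCounts 1.6.2. Gene numbers took symbols from the RefSeq table of assembly ASM3026992v2, which matched 13030 of 15884.

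Counts were tested with edgeR 4.0.16 (R 4.3.3) by its quasi-likelihood F test. The fit used TMM factors, filterByExpr (3855 genes removed) and group as the only term. On simulated counts it called 44.8% of 67 genes changed 1.5-fold, 89.6% of 67 changed 2-fold and 100% of 66 changed 4-fold. All changed genes averaged above 1 CPM. They were few among 12029 genes, whereas 36.2% of genes were called in the data, so these shares do not give the power for serpins here. A serpin that was not called is still not shown to be unchanged. Standard errors are the absolute log2 change over the root of F. Alternatives used DESeq2 1.42.0, limma 3.58.1 on log2(RPKM + 1) and log2(RPKM + 0.1), other scalings and filters, and each library left out.

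Members and lists were chosen with earlier results of these data known. Named serpins are all members. From each other list the rule takes up to 3 members per direction of smallest adjusted p. Scpx, Cpr and Dl, which matched list patterns by letters only, were left out, and cuticular genes are given as counts.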

Additional observations from a re-analysis of the deposited data

How the results depend on the processing

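The count of serpins called higher in GMS, 5, was 3 with upper-quartile factors, 3 with DESeq2 and 2 to 6 with 1 library left out. The count called lower, 5, ran from 4 to 6. Of all genes, 2115 were higher in the main analysis, 3264 with library totals alone and 1360 to 3549 with 1 library left out, and 2242 lower, 1634 to 3555 with 1 library left out, the upper ends without WT replicate 3. Library totals moved the median log2 change of all genes to 0.15 from 0.05, and that of serpins to 0.31 from 0.21. Serpin-2 changed sign at 0.0859 with library totals, at 0.0401 with limma on log2(RPKM + 1), at 0.0420 on log2(RPKM + 0.1) and at 0.0330 without GMS replicate 3 (range -0.0605 to 0.0330 with 1 library left out), and serpin-4 at 0.0148 with library totals. Neither was called with all 6 libraries. A limit of 1 CPM in at least 3 libraries left 17 serpins expressed, since it is stricter than 10 reads. The log2 ratio of the summed serpin level, -0.04, was 0.0236 from RPKM. Pathway genes called higher, 13, were 8 to 13 with 1 library left out, the lowest without GMS replicate 1 or 3.

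With the replicate number as a block, 2 serpins were higher and 4 lower, and 8 pathway genes were higher. Calls over all genes were fewer too, at 1450 higher and 1701 lower. No sign of pairing by number was seen: deviations of same-numbered libraries correlated at 0.0483, -0.169 and -0.169. Only GMS replicate 1 correlated best with its own number. GMS replicate 2 did so with WT replicate 3 (0.198) and GMS replicate 3 with WT replicate 2 (0.160). So few libraries cannot exclude a pairing. The causes of these shifts were not tested. Members under about 1 CPM are limited by depth.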
